A study of Mus musculus with 23 samples.

Results

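Interferon-induced genes were followed in the circumvallate papilla of mice, the taste papilla at the back of the tongue. The list held 46 gene names, 35 taken as type I interferon targets and 11 as type II targets, and each gene was represented by the array probe of that name with the highest mean signal. Of these, 45 names were on the array, among 34797 names in all, and 44 passed the filter on dim probes, among 28209. Oas1g did not pass, since its probe was well above background on 1 of 8 DIO-R, 1 of 8 DIO and 0 of 7 Lean arrays, and Ifi205 was not analysed here. Type I and type II describe which interferon class is best known to induce a gene, and many of these genes respond to both.

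The samples came from male C57Bl6/j mice in 3 groups. DIO-R (n = 8) has no definition in the labels; it was taken to mean diet-induced obese mice held to 60% of the energy eaten freely. DIO (n = 8) mice ate a high-fat diet rich in saturated fat without restriction, and Lean (n = 7) mice ate chow with 3% fat by weight. No genetic change and no drug is named for any group. Nothing states how long the diets lasted or whether samples came from different animals, so p-values measure the spread between these samples, which may be in part technical. RNA of the dissected papilla was hybridised to 1-colour Agilent arrays, 1 array a sample. The share of probes well above background was 66.9% to 78.4% per array, no spot was saturated, and the 23 arrays lay on 3 slides that each held every group. The 10 taste cell and 8 basal keratinocyte markers were all kept, as were 8 skeletal muscle markers. Arrays carry no read depth, and their number limits the precision. Levels are log2 intensity relative to the 75th percentile of the same array, so that 0 is the level of that percentile.

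Interferons are secreted when cells sense foreign or misplaced nucleic acid, or by activated T and NK cells. Type I interferons signal through a complex with STAT2 and IRF9, which binds the interferon-stimulated response element (ISRE), while type II interferon acts through the gamma-activated site (GAS). In taste tissue, receptors for both classes are present and interferon signalling has been linked to taste cell turnover.

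Promoters of some of the genes are shown to set the element of each class beside its gene. They were picked among genes with a match upstream of the start, so the lines do not show how common matches are. Psmb9 and Oasl1, for example, had a promoter with neither motif. The promoters come from RefSeq on build GRCm38.p6, where windows of 250 bases before to 50 bases after a start were matched for 34 of the 46 genes. Each line gives bases upstream of the start, 5′ to 3′ in the gene's own direction, with motif letters in capitals.
Isg15: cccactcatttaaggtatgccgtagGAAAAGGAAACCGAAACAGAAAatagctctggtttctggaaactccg
Ifit1: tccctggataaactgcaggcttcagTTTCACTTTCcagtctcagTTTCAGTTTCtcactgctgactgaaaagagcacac
Ifit3: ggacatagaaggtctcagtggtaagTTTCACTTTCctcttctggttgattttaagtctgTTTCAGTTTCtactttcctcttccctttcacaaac
Bst2: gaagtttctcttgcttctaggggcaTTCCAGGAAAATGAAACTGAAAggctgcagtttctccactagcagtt
Ifi203: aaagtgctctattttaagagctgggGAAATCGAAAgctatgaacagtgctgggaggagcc
Gbp3: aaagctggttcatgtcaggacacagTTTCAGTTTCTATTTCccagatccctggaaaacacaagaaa
Gbp2: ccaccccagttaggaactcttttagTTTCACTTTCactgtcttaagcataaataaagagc
Igtp: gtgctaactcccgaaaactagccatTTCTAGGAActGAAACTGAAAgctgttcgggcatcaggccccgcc
Irf1: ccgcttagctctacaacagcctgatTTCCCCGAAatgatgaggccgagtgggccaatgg
The windows lie at Isg15 chr4:156200850-156200921 (minus strand), Ifit1 chr19:34640760-34640838 (plus strand), Ifit3 chr19:34583348-34583441 (plus strand), Bst2 chr8:71537562-71537633 (minus strand), Ifi203 chr1:173942493-173942552 (minus strand), Gbp3 chr3:142559974-142560039 (plus strand), Gbp2 chr3:142620579-142620638 (plus strand), Igtp chr11:58199486-58199555 (plus strand) and Irf1 chr11:53769899-53769957 (plus strand). Capitals mark GAAA, any 2 bases and GAAA again, or its reverse (TTTC, any 2 bases, TTTC), as searched on both strands for the ISRE, and TTC, any 3 bases and GAA, which reads the same on both strands, for the GAS. In Isg15 and Gbp3 copies of the ISRE letters overlap each other, and in Bst2 the capitals run from a GAS match into overlapping ISRE matches. Igtp holds a GAS match followed by an ISRE match, and Irf1 holds a GAS match with no ISRE match in the window. A gene was counted as holding a motif if any of its promoters did. The ISRE letters occurred in 15 of 25 type I genes (60.0%) and 5 of 9 type II genes (55.6%), against 3.99% of all 27025 genes. GAS letters were found in 6 of 25 type I (24.0%) and 4 of 9 type II genes (44.4%), against 9.55% of all genes. Counted by promoter, 3.44% of all 32851 windows of the same length held the ISRE letters and 8.3% the GAS letters. Matches of both kinds overlapped in 24 promoters (0.0731%). A match describes letters and is not a measured binding site.

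DIO against Lean asks what the obesogenic diet went with. Of the 44 genes, 42 were higher in DIO and 2 (Oasl1 and Ifi204) lower, with a median log2 difference of 0.59, while over all genes kept the median was -0.04 and 41.1% were higher. None passed an adjusted p under 0.05 (limma, Benjamini-Hochberg over 28209 genes, background 0.00354%). At an unadjusted p under 0.05, 23 were higher and 0 lower, where 4.06% of all genes were higher and 4.9% lower. In tissue RNA, more cells of a responding type and more RNA per cell cannot be told apart. The plot of differences shows the size and error for each gene.

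**Figure D1:**
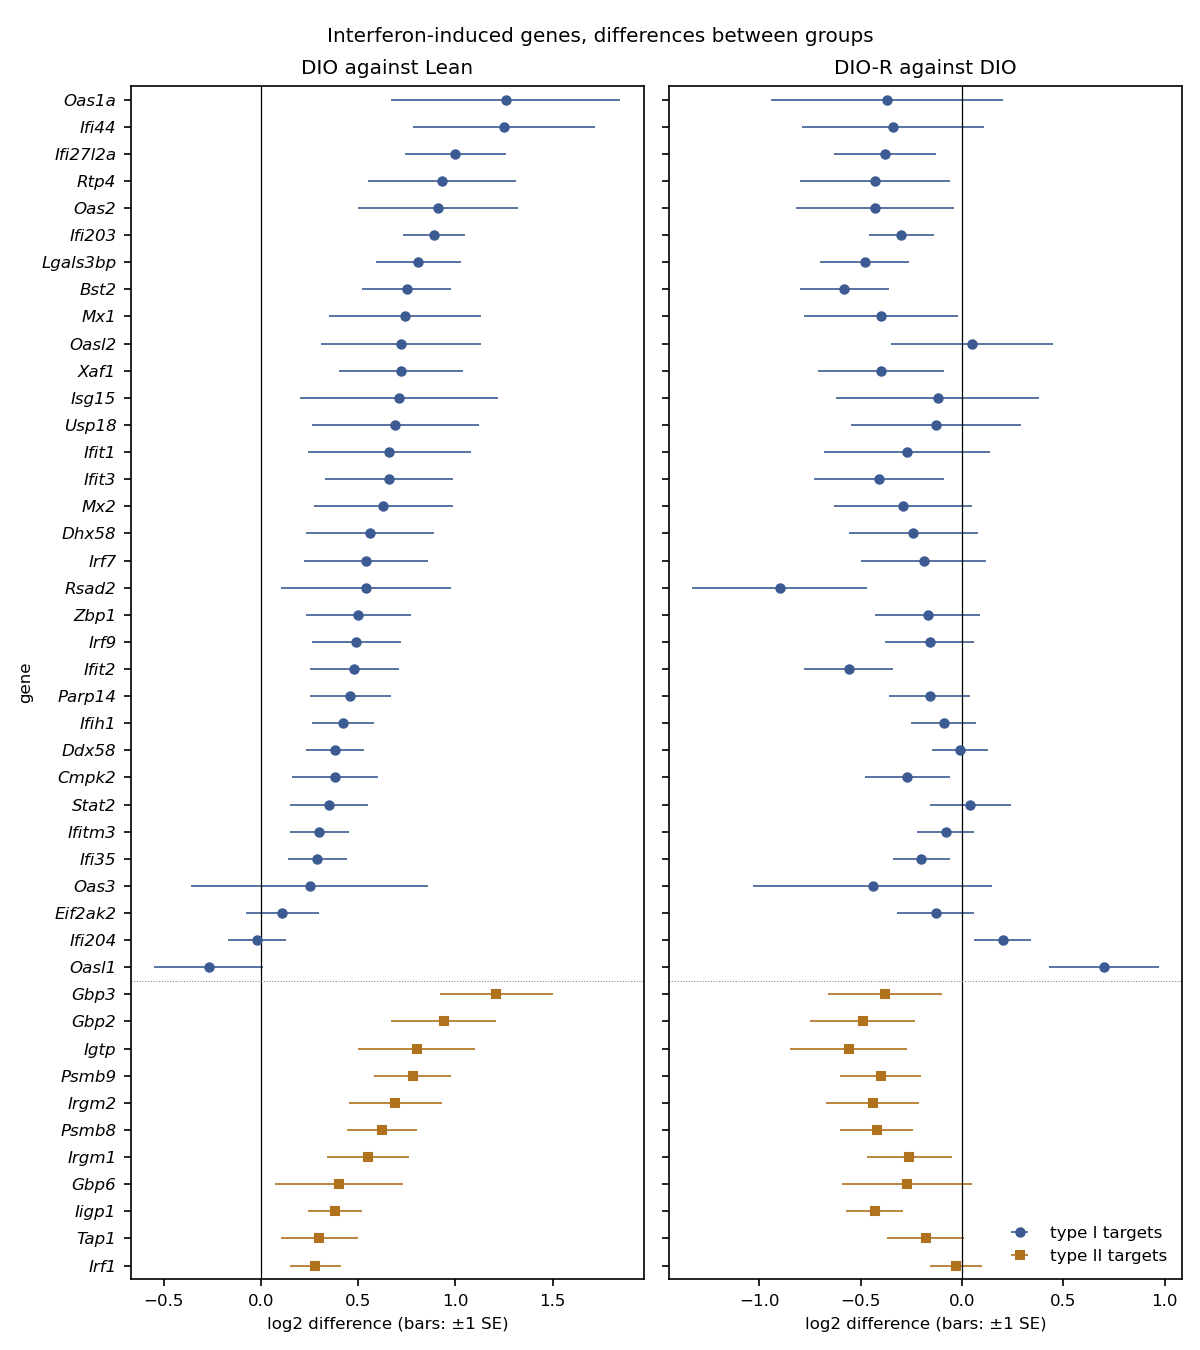
Log2 difference of each interferon-induced gene (x axis, bars ± 1 SE) in DIO against Lean (left) and DIO-R against DIO (right), type I targets as circles above the dotted line and type II targets as squares below it. In DIO against Lean 42 of 44 points lie right of 0, and in DIO-R against DIO 40 of 44 lie left of it.

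Among the transcription factors, all 4 were higher in DIO than in Lean, by 0.28 to 0.54. Irf1, an early target of type II interferon (probe at chr11:53590746-53590805 of build mm9, per the file headers), lay at 2.31, 2.48 and 2.59 in DIO-R, 2.01, 2.40 and 3.05 in DIO and 1.90, 2.24 and 2.38 in Lean (lowest, median and highest). The DIO values reached both below and above all DIO-R values, and 6 of 8 lay above the Lean mean (difference 0.28 ± 0.13 SE, adjusted p = 0.535, limma). Irf9, the DNA-binding part of the type I complex, differed by 0.49 ± 0.23 SE with 8 of 8 DIO samples above the Lean mean. Irf7, which amplifies type I interferon production, and Stat2 differed by 0.54 ± 0.32 SE and 0.35 ± 0.20 SE.

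Of the 7 nucleic acid sensors kept, 6 were higher in DIO than in Lean. Ifi203, a member of the mouse family of interferon-induced DNA-binding proteins (probe at chr1:175850536-175850595, mm9), had the smallest p of all 44 genes. It lay at 0.17, 0.51 and 0.93 in DIO-R, 0.55, 0.82 and 1.34 in DIO and -0.41, -0.26 and 0.81 in Lean. Every DIO sample lay above 6 of the 7 Lean samples, and Lean 7, at 0.81, stood inside the DIO range. DIO was 1.85-fold higher than Lean (0.89 ± 0.16 SE, adjusted p = 0.0792, limma). Its call rested on single arrays: it passed without Lean 7 (1.03, adjusted p = 0.00617), without DIO 6 (0.90, adjusted p = 0.0449) and with array weights (0.99, adjusted p = 0.0133). The other 3 probes named Ifi203 differed by 0.85, 1.26 and 1.24; genes of this cluster are similar in sequence and may share probe signal. Ifi204, a close relative, lay at 1.97, 2.36 and 2.58 in DIO-R, 1.25, 2.20 and 2.73 in DIO and 2.03, 2.09 and 2.33 in Lean. Its 3 groups overlapped widely, and DIO differed from Lean by -0.02 ± 0.15 SE. The RNA sensors Ddx58 (RIG-I) and Ifih1 (MDA5) differed by 0.38 ± 0.15 SE and 0.42 ± 0.16 SE, although another, dimmer Ifih1 probe differed by 0.03. For the RNA helicase Dhx58 (LGP2), Zbp1, which senses nucleic acid of the Z form, and the RNA-activated kinase Eif2ak2 the differences were 0.56, 0.50 and 0.11.

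The antiviral effectors held the widest spread. Of 14 kept, 13 were higher in DIO than in Lean. Of the 13, 4 had an unadjusted p under 0.05, where 4.06% of all genes were higher. Bst2 (tetherin), which holds budding virus at the cell surface (probe at chr8:74058603-74058662, mm9), lay at 0.46, 1.11 and 1.37 in DIO-R, 0.90, 1.47 and 2.84 in DIO and 0.21, 0.82 and 1.32 in Lean. All 8 DIO samples exceeded the Lean mean, but the ranges overlapped (0.75 ± 0.23 SE, adjusted p = 0.294, limma). Ifitm3, which blocks viral entry at membranes and was the brightest of these genes, differed by 0.30 ± 0.15 SE, with 4.01, 4.54 and 4.81 in DIO-R, 4.00, 4.58 and 5.35 in DIO and 3.95, 4.37 and 4.49 in Lean. Oas1a, an oligoadenylate synthetase that activates an RNA-degrading pathway, had the highest difference of all members at 1.26 ± 0.59 SE, with DIO 3 at 4.48 and DIO 10 at 2.50 while the other 6 DIO samples lay at 1.46 or lower. Without DIO 3 it differed by 0.78, and Gbp3 was then highest at 0.99. Oas2 differed by 0.91 ± 0.41 SE. The Ifit genes, which bind viral RNA, differed by 0.48 to 0.66 and the Mx GTPases by 0.63 and 0.74, each with an SE of 0.23 or more. Rsad2 (viperin) and Cmpk2, whose products act together in making an antiviral nucleotide, differed by 0.54 ± 0.44 SE and 0.38 ± 0.22 SE. Oas3 was well above background on 4 of 8 DIO-R, 6 of 8 DIO and 4 of 7 Lean arrays and differed by 0.25 ± 0.61 SE.

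Oasl1 ran the other way. This regulator, known in mouse for limiting translation of Irf7 (probe at chr5:115387861-115387920, mm9), lay at 2.22, 2.92 and 3.32 in DIO-R, 0.72, 2.26 and 3.29 in DIO and 1.78, 2.50 and 2.79 in Lean. DIO 1 and DIO 6, at 0.72 and 1.22, were the lowest of all 23 samples. DIO differed from Lean by -0.27 ± 0.28 SE, and DIO-R from DIO by 0.70 ± 0.27 SE with 8 of 8 DIO-R samples above the DIO mean (adjusted p = 0.48, limma). Oasl2, its relative, differed by 0.72 ± 0.41 SE between DIO and Lean and by 0.05 ± 0.40 SE between DIO-R and DIO.

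Of the ISG15 system, both kept genes were higher in DIO than in Lean. Isg15, a ubiquitin-like modifier (probe at chr4:155573649-155573708, mm9), lay at 0.45, 1.70 and 2.59 in DIO-R, 0.56, 1.08 and 4.86 in DIO and 0.37, 0.87 and 2.17 in Lean. DIO 3 held the value 4.86, and the next DIO sample lay at 2.10, within the DIO-R range. The DIO against Lean difference was 0.71 ± 0.51 SE with all samples and 0.25 without DIO 3. Usp18, the protease that removes ISG15, lay at -2.05, -1.21 and 0.58 in DIO-R, -1.82, -1.35 and 1.16 in DIO and -2.41, -1.39 and -0.76 in Lean (0.69 ± 0.43 SE).

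All 7 GTPases induced by type II interferon were higher in DIO than in Lean, with a median of 0.69. Of these, 6 had an unadjusted p under 0.05, where 4.06% of all genes were higher. Gbp3, of the guanylate-binding proteins, a family that coats intracellular microbes (probe at chr3:142236032-142236091, mm9), lay at -1.12, -0.35 and 0.23 in DIO-R, -0.72, -0.30 and 1.52 in DIO and -1.91, -1.28 and -0.54 in Lean. DIO and Lean shared a small stretch of range, and all 8 DIO samples exceeded the Lean mean (2.31-fold, 1.21 ± 0.29 SE, adjusted p = 0.168, limma). Gbp2 was the 1 gene of the 44 whose DIO and Lean samples did not overlap: the lowest DIO sample lay at 0.15 and the highest Lean sample at 0.08, against a background of 0.0744% of genes separated with DIO higher. It was named here after its values were seen, and its difference was 0.94 ± 0.27 SE. Gbp6 lay at 0.78, 1.27 and 1.66 in DIO-R, 0.83, 1.61 and 2.10 in DIO and -0.28, 1.18 and 2.51 in Lean, so that Lean held both its extremes (0.40 ± 0.33 SE). The immunity-related GTPases Igtp, Irgm1, Irgm2 and Iigp1, which act on vacuoles that hold pathogens, differed by 0.80, 0.55, 0.69 and 0.38. Another, dimmer Iigp1 probe differed by 1.52. Guanylate-binding protein genes are close copies, and their probes may share signal.

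Antigen-processing genes were higher in DIO than in Lean for all 3 members. Psmb9, an immunoproteasome subunit (probe at chr17:34319174-34319233, mm9), lay at 0.14, 0.54 and 0.87 in DIO-R, 0.48, 0.71 and 1.86 in DIO and -0.42, 0.14 and 0.57 in Lean. DIO 3 and DIO 10, at 1.86 and 1.85, stood above all other samples, and the remaining DIO samples lay between 0.48 and 0.80 (difference 0.78 ± 0.20 SE, adjusted p = 0.192, limma). A dimmer Psmb9 probe, well above background on 11 arrays, differed by -0.06. Psmb8, another subunit, lay at 0.05, 0.66 and 0.93 in DIO-R, 0.51, 0.89 and 1.87 in DIO and -0.21, 0.42 and 0.75 in Lean (0.62 ± 0.18 SE). Tap1, which carries peptides into the endoplasmic reticulum, differed by 0.30 ± 0.20 SE.

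The remaining 7 induced genes were all higher in DIO than in Lean. Ifi27l2a, a small interferon-inducible protein and the brightest of this group (probe at chr12:104680394-104680453, mm9), lay at 3.65, 4.03 and 5.08 in DIO-R, 3.80, 4.28 and 5.93 in DIO and 2.99, 3.48 and 3.98 in Lean. All 8 DIO-R and all 8 DIO samples lay above the Lean mean. DIO-R differed from Lean by 0.62 ± 0.26 SE (adjusted p = 0.49, limma) and DIO from Lean by 1.00 ± 0.26 SE (adjusted p = 0.197, limma). Ifi44 and Rtp4, a chaperone of receptor trafficking, differed between DIO and Lean by 1.25 ± 0.47 SE and 0.93 ± 0.38 SE. Lgals3bp, a secreted glycoprotein, differed by 0.81 ± 0.22 SE (0.44 by its other probe). Xaf1, which promotes cell death, the ADP-ribosyltransferase Parp14 and Ifi35 differed by 0.72, 0.46 and 0.29.

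**Figure D2:**
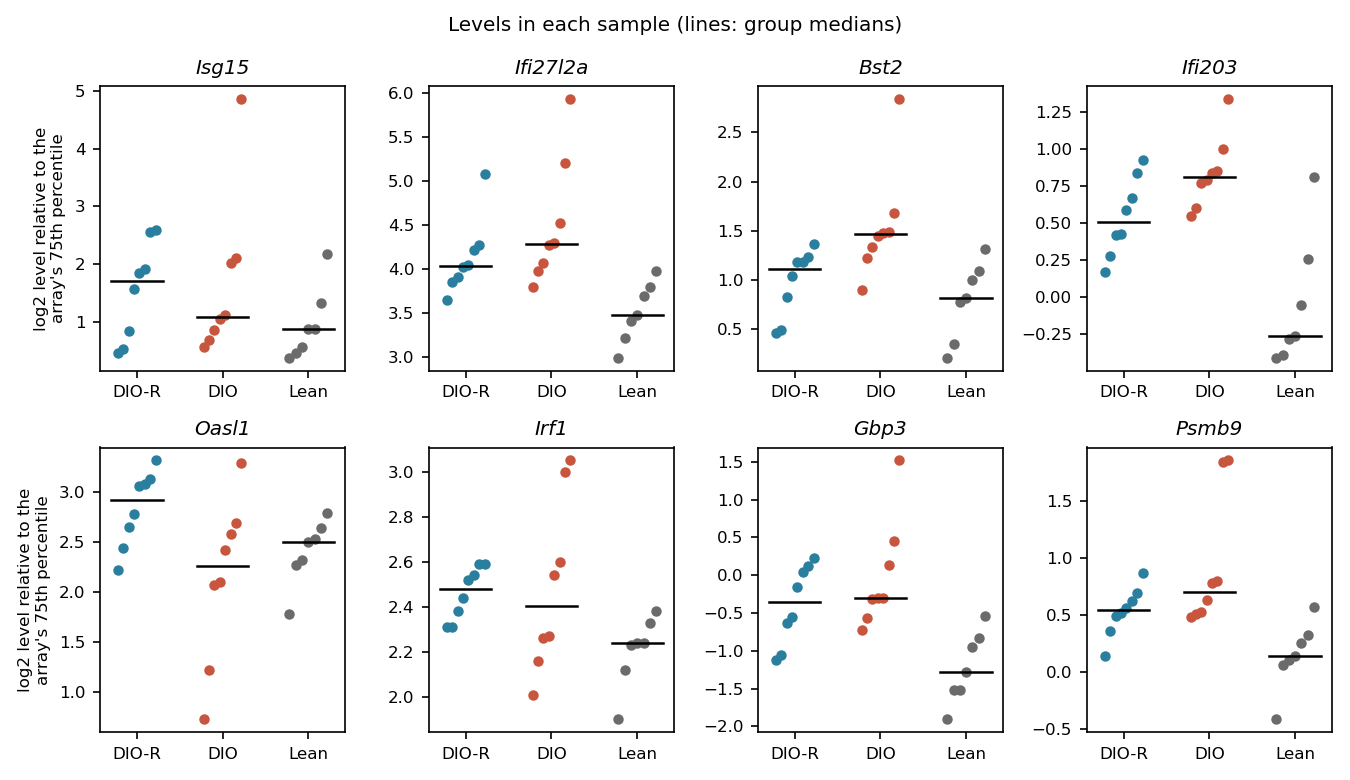
Log2 level relative to the array's 75th percentile (y axis) of 8 genes in each DIO-R (n = 8), DIO (n = 8) and Lean (n = 7) sample; points are samples and lines are group medians. One DIO sample stands apart for Isg15 (4.86) and Bst2 (2.84), a pair of DIO samples for Psmb9 (1.85 and 1.86), and the Oasl1 median is 2.92 in DIO-R and 2.26 in DIO.

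DIO-R against DIO sets restricted obese mice against those fed freely. Of the 44 genes, 4 were higher and 40 lower in DIO-R, with a median of -0.28, while the median over all genes was 0.01 and 48.4% were lower. None passed an adjusted p under 0.05 (limma, background 0.0603%), and at an unadjusted p under 0.05 there were 6 lower and 1 higher, where the background was 3.79% lower and 5.94% higher. The 6 were Iigp1, Bst2, Ifit2, Psmb8, Lgals3bp and Rsad2, and the 1 was Oasl1. Iigp1 had the smallest p: it lay at -1.88, -1.74 and -1.27 in DIO-R, -1.69, -1.35 and -0.58 in DIO and -1.78, -1.67 and -1.28 in Lean. DIO-R and DIO overlapped, with 7 of 8 DIO-R samples below the DIO mean (-0.43 ± 0.14 SE, adjusted p = 0.439, limma). For Bst2 the difference was -0.58 ± 0.22 SE and for Psmb8 -0.42 ± 0.18 SE, with 8 of 8 DIO-R samples below the DIO mean in both. Rsad2 differed by -0.90 ± 0.43 SE, and DIO-R 10, at -5.22, was the one sample in which its probe was not well above background. Without DIO-R 10 the Rsad2 difference was -0.43 in DIO-R against DIO, and 0.11 in DIO-R against Lean, where it was -0.36 with all samples.

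DIO-R against Lean left 39 genes higher and 5 lower in DIO-R, with a median of 0.33, while the median over all genes was -0.02 and 44.5% were higher. Without DIO-R 10 the median was 0.21, with 40 genes higher. None passed (limma, background 0.128%). At an unadjusted p under 0.05, 4 were higher and 0 lower, where 4.43% of all genes were higher and 4.51% lower. The 4 were Ifi203 (0.59 ± 0.16 SE, adjusted p = 0.201, limma), Gbp3 (0.83 ± 0.29 SE), Ddx58 (0.37 ± 0.15 SE) and Ifi27l2a. Ddx58 lay at 0.68, 0.93 and 1.74 in DIO-R, 0.74, 0.98 and 1.69 in DIO and 0.43, 0.69 and 0.87 in Lean, and DIO-R and DIO differed by -0.01 ± 0.14 SE. Ifi203 passed in this comparison too when Lean 7 was left out (0.73, adjusted p = 0.0295). The 3 comparisons share samples, so their directions are not independent of each other.

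Both interferon classes were higher in DIO than in Lean, with medians of 0.56 for 33 type I targets and 0.62 for 11 type II targets. In DIO-R against DIO the medians were -0.27 and -0.40, and in DIO-R against Lean 0.34 and 0.25 (0.22 and 0.19 without DIO-R 10). An unadjusted p under 0.05 with DIO higher than Lean was reached by 14 of 33 type I and 9 of 11 type II targets. Of all genes 4.06% reached it. The spread within groups differed between the classes: the median pooled SD was 0.57 for type I and 0.43 for type II targets, and 0.30 over all genes. In DIO-R the median SD was 0.56 for type I and 0.27 for type II targets, with 0.26 over all genes. In DIO it was 0.65 and 0.58, with 0.29 over all genes, and in Lean 0.44 and 0.30, with 0.29. Whether the classes differed was not tested. Genes with ISRE letters in the promoter (n = 18) had a median DIO against Lean difference of 0.66, and those without (n = 14) 0.52.

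A mean over the genes of a class, each centred on its own mean over the 23 samples, shows how the samples differ. For type I targets it lay at -0.59, -0.03 and 0.66 in DIO-R, -0.37, -0.04 and 1.60 in DIO and -0.84, -0.29 and 0.05 in Lean (lowest, median and highest). The DIO-R and DIO medians were nearly equal, and DIO reached higher through 1 sample, DIO 3. Over type II targets it lay at -0.40, 0.02 and 0.27 in DIO-R, -0.19, 0.11 and 1.26 in DIO and -0.70, -0.29 and 0.04 in Lean. DIO 3 held the highest type I and type II means, at 1.60 and 1.26. DIO 10 was next for type II (0.93) and at 0.56 for type I, while DIO 8 was higher for type I (0.66) than for type II (0.32). DIO-R 5 and DIO-R 10 lay at 0.66 and 0.65 for type I but at 0.27 and 0.18 for type II. Lean 9 was lowest in both, at -0.84 and -0.70.

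**Figure D3:**
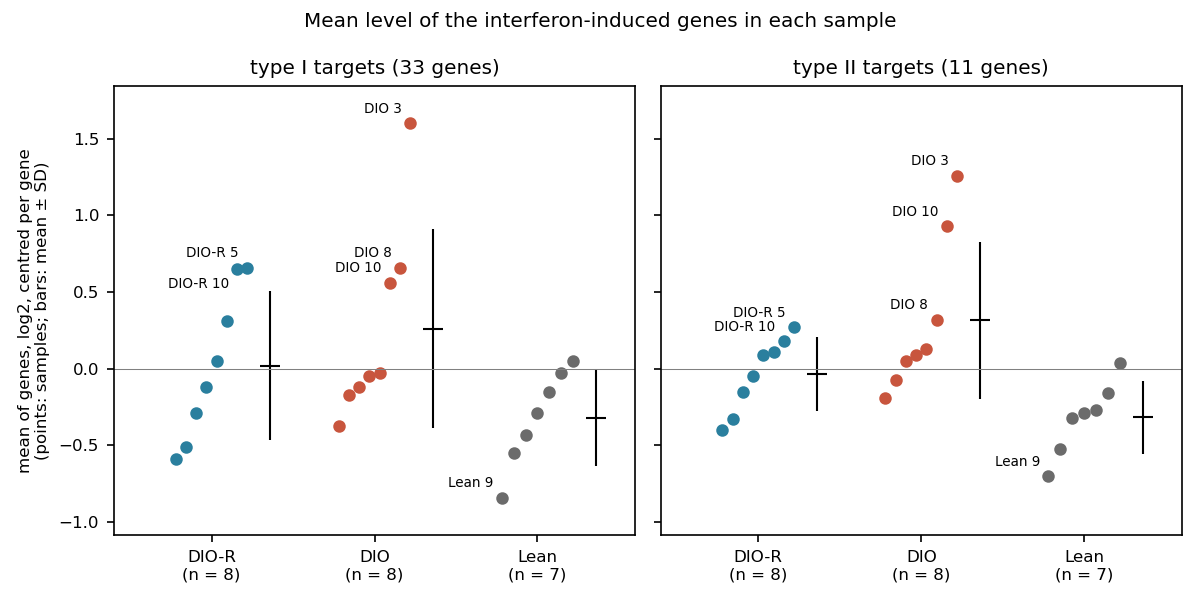
Mean of the centred log2 levels (y axis) of 33 type I targets (left) and 11 type II targets (right) in each DIO-R, DIO and Lean sample; points are samples and black bars the group mean ± SD. DIO 3 is highest in both panels (1.60 and 1.26), DIO 10 is next in the type II panel (0.93), and Lean 9 is lowest in both (-0.84 and -0.70).

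DIO 3 was the highest of all 23 samples for 31 of the 44 genes, 24 type I and 7 type II, and Lean 9 the lowest for 28, 20 type I and 8 type II. DIO 8 was highest for 5 type I targets and DIO 10 for 3 type II targets. The map of all genes and samples shows these as columns.

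**Figure D4:**
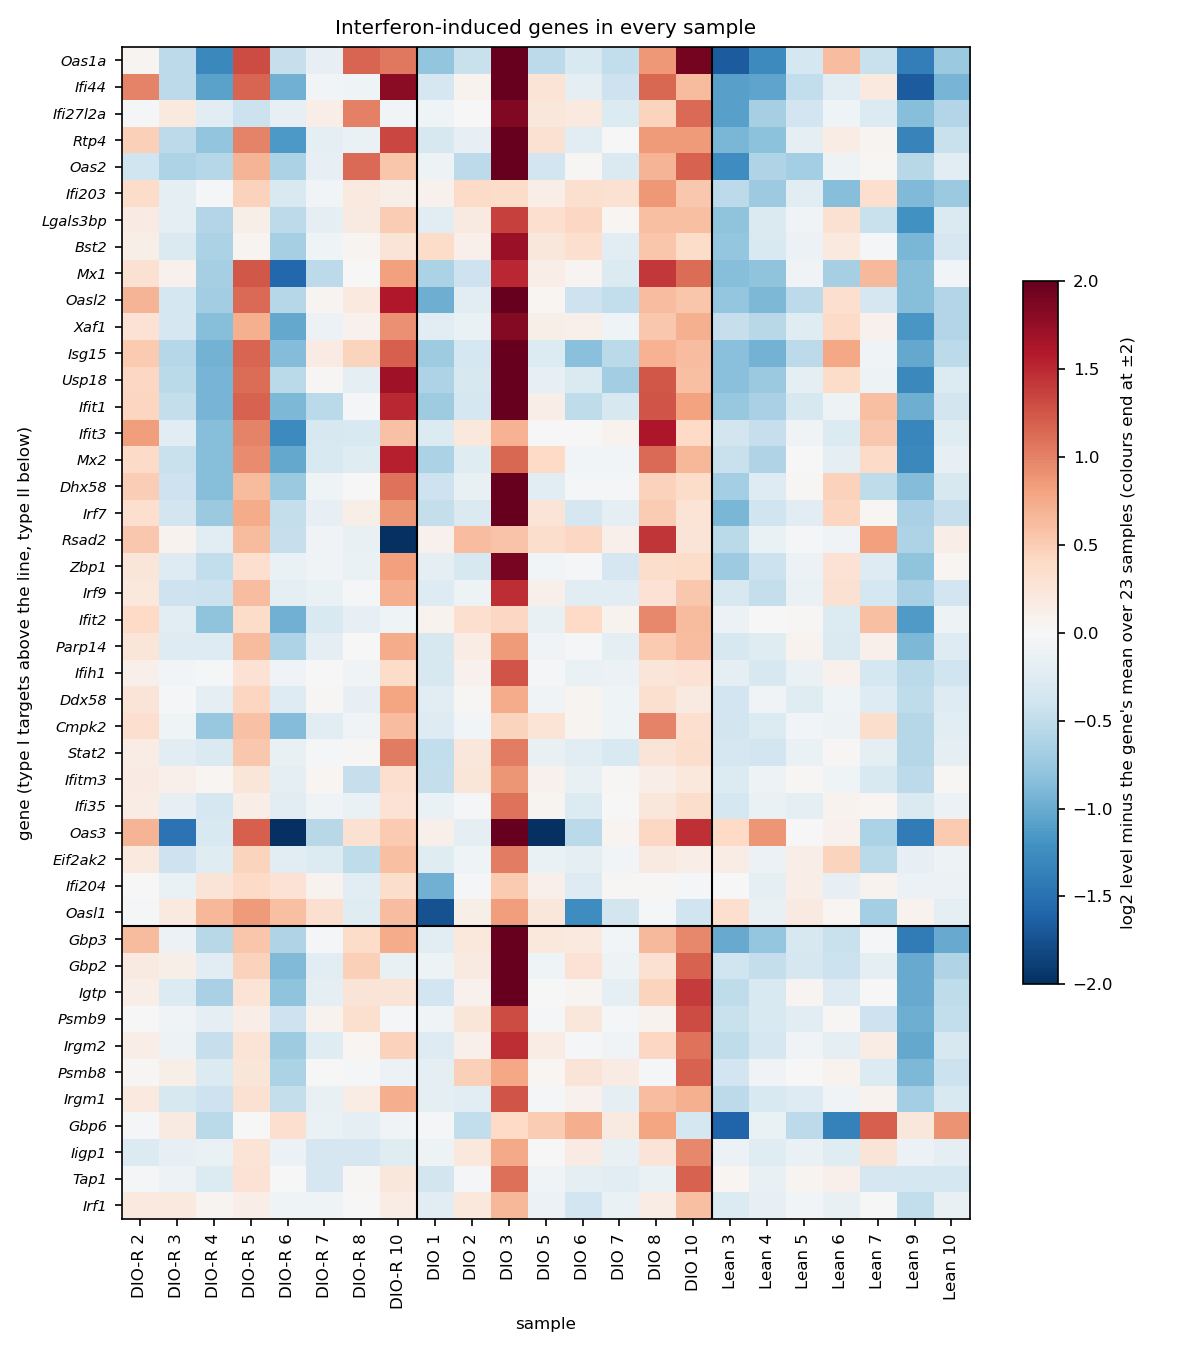
Log2 level of each gene (rows) minus its mean over the 23 samples, in every DIO-R, DIO and Lean sample (columns), red above and blue below the mean, with colours ending at ±2. The DIO 3 column is red nearly throughout, being highest for 31 of 44 genes, and the Lean 9 column is mostly blue, being lowest for 28.

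Without DIO 3, 40 genes were higher in DIO than in Lean and 4 were lower, the medians were 0.39 for type I and 0.53 for type II targets, and 15 were higher at an unadjusted p under 0.05, where 4.76% of all genes were. DIO-R against DIO moved further: 15 were then higher and 28 lower in DIO-R, and the type I median was -0.02 and the type II median -0.27. Leaving out Lean 9 gave DIO against Lean medians of 0.47 and 0.51, with 15 genes higher at an unadjusted p under 0.05, against 3.37% of all genes. With both left out, a setting chosen after the data were seen, the medians were 0.28 and 0.44, 40 genes were higher, and 8 were higher at an unadjusted p under 0.05, against 3.68% of all genes. All 11 type II targets were higher in DIO than in Lean in each of these 3 settings.

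**Figure D5:**
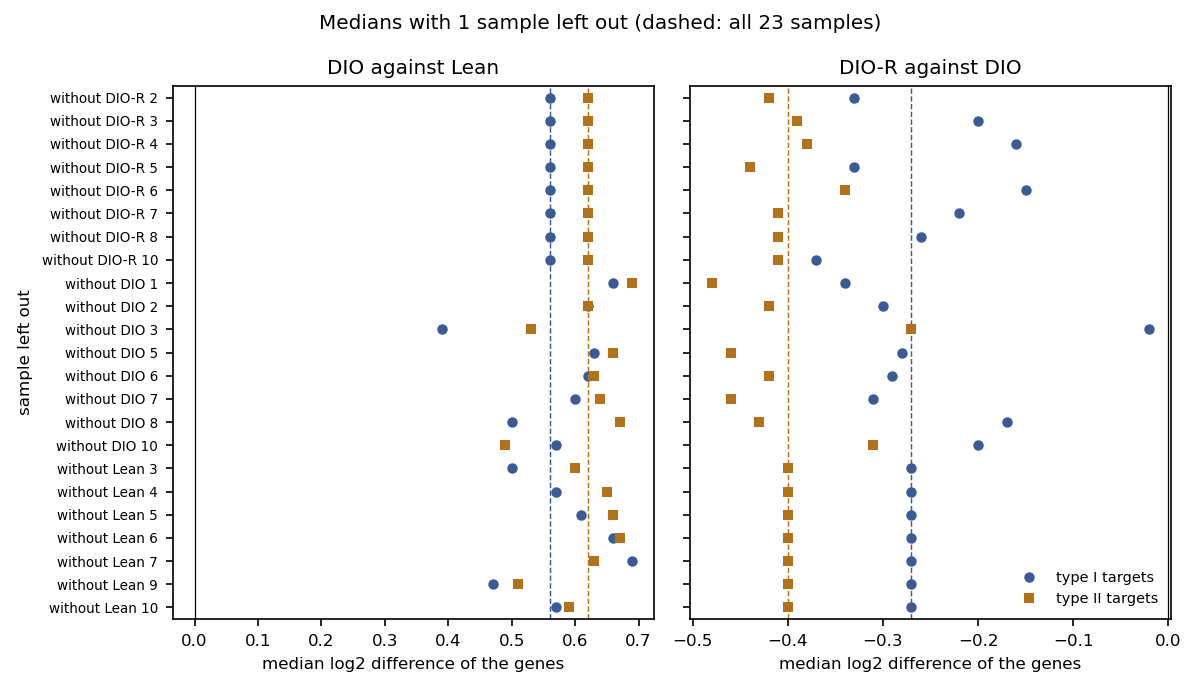
Median log2 difference (x axis) of type I targets (circles) and type II targets (squares) after leaving out the sample named on the y axis, for DIO against Lean (left) and DIO-R against DIO (right); dashed lines mark the medians with all 23 samples. Without DIO 3 the type I median is 0.39 on the left and -0.02 on the right.

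The slide moved with part of the pattern. DIO 3, DIO 10, DIO-R 5 and DIO-R 10 all lay on slide 2. DIO 6, DIO-R 4, Lean 6 and Lean 10 lay there too, with type I means of -0.12, -0.51, 0.05 and -0.29. DIO 8, with a type I mean of 0.66, lay on slide 3. Within slides 1, 2 and 3 the DIO against Lean median of type I targets was 0.20, 0.75 and 0.68, and of type II targets 0.25, 0.92 and 0.51. For DIO-R against DIO the type I medians were -0.28, -0.36 and -0.20 and the type II medians -0.26, -0.76 and -0.14. Those of DIO-R against Lean were -0.03, 0.37 and 0.39 for type I and 0.14, 0.26 and 0.30 for type II. With the slide as a block, DIO against Lean stood at 0.57 for type I and 0.59 for type II, and DIO-R against DIO at -0.31 and -0.43.

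Upstream of these genes, none of the ligand or receptor genes passed the adjusted threshold (limma); at an unadjusted p under 0.05 there were 0 in DIO against Lean and 1, Ifng, in DIO-R against DIO. In DIO-R against Lean there was 1, Ifna13, with a difference of -0.52 ± 0.24 SE. Of 23 interferon genes listed, 12 were kept, with medians of -0.10 in DIO against Lean, -0.18 in DIO-R against DIO and -0.23 in DIO-R against Lean, where 10 of the 12 were lower; the Ifna genes are near-identical copies and uncertain. Ifng, the type II interferon, lay at -6.57, -6.17 and -5.48 in DIO-R, -6.27, -5.04 and -4.14 in DIO and -6.91, -5.47 and -4.32 in Lean, near background in all groups. DIO-R differed from DIO by -0.86 ± 0.34 SE (adjusted p = 0.482, limma) and DIO from Lean by 0.31 ± 0.36 SE. Ifnb1 was not kept. The 6 receptor genes kept had a median of -0.03 in DIO against Lean, and Ifnar1 and Ifngr1, receptor chains of each class, differed by -0.02 ± 0.09 SE and -0.04 ± 0.10 SE. Medians in DIO against Lean were 0.03 for the 7 inhibitors of signalling and 0.04 for the 17 genes of upstream sensing kept. Over all genes the median was -0.04. Of the 17 sensing genes 12 were higher and 5 lower. At an unadjusted p under 0.05, 5 were higher and 0 lower, where 4.06% of all genes were higher. The largest difference was 0.48, for Irf8. In DIO-R against DIO 2 of the 17 were lower and 0 higher at that p, where 3.79% of all genes were lower. Of the 7 inhibitors 4 were higher in DIO than in Lean, 1 of them at that p.

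Of 48 other induced genes listed, 44 were kept: 38 were higher in DIO than in Lean, 18 of them at an unadjusted p under 0.05, with a median of 0.26 and none past the adjusted threshold (limma). In DIO-R against DIO, 34 were lower, 8 of them at an unadjusted p under 0.05, with a median of -0.15. Over all genes kept, 41.1% were higher in DIO than in Lean, and 4.06% were higher at an unadjusted p under 0.05. In DIO-R against DIO 48.4% of all genes were lower, and 3.79% at that p. Uba7, which activates ISG15, lay at 0.11, 0.73 and 1.16 in DIO-R, 0.75, 1.09 and 1.33 in DIO and -0.01, 0.30 and 0.65 in Lean. The DIO and Lean ranges did not overlap (0.69 ± 0.13 SE, adjusted p = 0.0888, limma). This held for 1 of the 44 genes kept, against 0.0744% of all genes separated with DIO higher. Uba7 was named for its small p, after its values were seen. Gbp7, a further guanylate-binding protein, differed by 0.82 ± 0.22 SE in DIO against Lean and by -0.76 ± 0.22 SE in DIO-R against DIO.

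Cxcl10, a chemokine that attracts T cells and a target of both classes, lay at -4.52, -3.11 and 0.52 in DIO-R, -4.61, -3.85 and 2.17 in DIO and -4.68, -3.43 and -2.38 in Lean. DIO 3 (2.17), DIO 10 (1.59) and DIO-R 5 (0.52) were the highest, followed by DIO 8 (-0.35) and DIO-R 8 (-0.97), and the DIO median was below the Lean median. The difference between DIO and Lean was 1.28 ± 0.99 SE (adjusted p = 0.772, limma).

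Markers of other cell types were set beside these values, as sums in multiples of the array's 75th percentile. For macrophages and monocytes (17 of 19 markers kept) the sum ran from 34.5 to 49.0 in DIO-R, 34.5 to 57.5 in DIO and 30.8 to 51.2 in Lean, with overlapping ranges. Of these 17 markers 13 were higher in DIO than in Lean (median 0.22, 3 of them at an unadjusted p under 0.05), and 15 were lower in DIO-R than in DIO (median -0.29, with 3 lower and 1 higher at an unadjusted p under 0.05). Their centred means were -0.08 in DIO-R, 0.14 in DIO and -0.06 in Lean. In these 2 comparisons macrophage markers thus moved in the same directions as the interferon-induced genes. In DIO-R against Lean they did not: 9 were higher and 8 lower (median 0.03), while 39 of the 44 interferon-induced genes were higher. None of these markers passed the adjusted threshold (limma). Over all genes, 4.06% were higher and 4.9% lower at an unadjusted p under 0.05 in DIO against Lean. In DIO-R against DIO 5.94% were higher and 3.79% lower. For T and NK cells (16 of 18 kept, Ncr1 not above background on any array) the sum ran from 21.2 to 27.5 in DIO-R, 18.7 to 32.7 in DIO and 21.2 to 24.6 in Lean. Of these 16 markers 7 were higher and 9 lower in DIO than in Lean (median -0.02), with 2 higher at an unadjusted p under 0.05. Dendritic and Langerhans cell markers (10 of 11 kept, Xcr1 not above background on any array) ran from 93.5 to 136 in DIO-R, 107 to 132 in DIO and 96.9 to 143 in Lean. Of these 10 markers 7 were higher in DIO than in Lean (median 0.23), with 4 higher and 1 lower at an unadjusted p under 0.05. In DIO-R against DIO 7 were lower (median -0.06), 1 of them at that p. Erythrocyte markers (5 of 8 kept) ran from 17.9 to 77.7 in DIO-R, 38.5 to 164 in DIO and 12.4 to 57.9 in Lean, with medians of 38.7, 74.7 and 36.7 in DIO-R, DIO and Lean, so these markers moved with the groups while their ranges overlapped. All 5 were higher in DIO than in Lean (median 1.2, 4 of them at an unadjusted p under 0.05). All 5 were lower in DIO-R than in DIO (median -1.12), each at that p. Differentiated keratinocyte markers (18 of 18 kept) ran from 1210 to 2280 in DIO-R, 682 to 2310 in DIO and 1140 to 2900 in Lean, with medians of 1800, 1360 and 1860 in DIO-R, DIO and Lean. Of these 18 markers 17 were lower in DIO than in Lean (median -0.47, 9 of them at an unadjusted p under 0.05), and all 18 were higher in DIO-R than in DIO (median 0.40, 3 of them at an unadjusted p under 0.05), with none past the adjusted threshold (limma). These markers thus moved with the groups too, in the opposite directions. The mean of centred macrophage markers was -0.54 in DIO 3, the sample highest for most interferon-induced genes, 0.58 in DIO 10 and -0.56 in Lean 9. For T and NK cells it was 0.17 in DIO 3, 0.73 in DIO 10 and -0.05 in Lean 9. DIO 3 and Lean 9 were alike in fibroblast (-0.65 and -0.96), endothelium (-0.57 and -0.59) and differentiated keratinocyte markers (0.57 and 0.83). They were unlike in others, such as erythrocyte (0.85 and -0.02) and skeletal muscle markers (-0.28 and 0.48). Centred means by group were 0.00 in DIO-R, 0.18 in DIO and -0.21 in Lean for fibroblasts (10 of 10 kept), -0.09, 0.12 and -0.03 for endothelium (8 of 8), and -0.79, 0.37 and 0.48 for adipocytes (6 of 6), each given as DIO-R, DIO and Lean. In that order they were 0.06, 0.14 and -0.22 for neutrophils and mast cells (12 of 12), 0.03, -0.23 and 0.23 for B and plasma cells (4 of 9), -0.33, 0.20 and 0.14 for skeletal muscle (8 of 8), 0.12, -0.08 and -0.05 for basal keratinocytes (8 of 8) and 0.09, -0.12 and 0.03 for taste cells (10 of 10). Of the 10 fibroblast markers 9 were higher in DIO than in Lean (median 0.38, 4 of them at an unadjusted p under 0.05). In DIO-R against DIO 9 were lower (median -0.2), 0 of them at that p. DIO-R against Lean, given above for macrophages, had 7 of 10 dendritic and Langerhans cell markers higher (median 0.12). It had 7 of 10 fibroblast markers higher (median 0.19). Of these, 2 and 1 were higher at an unadjusted p under 0.05, where 4.43% of all genes were. Higher too were 8 of 16 T and NK cell (median -0.01), 4 of 5 erythrocyte (0.08) and 5 of 18 differentiated keratinocyte markers (-0.13). The part of these cell types in the differences was not tested.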

How the data were processed

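Messenger RNA was measured in 23 samples, DIO-R (n = 8), DIO (n = 8) and Lean (n = 7), grouped by the condition in their titles. Spot intensities were deposited as scanner output; the file headers name Agilent Feature Extraction, version 10.10.1.1, and per the file headers it removed background on each array. The authors' deposited values, for 35829 probes, are on a log2 scale with array medians of 7.634 to 7.64. Their normalization is unknown beyond limma being named, per the submitters' processing notes, and they served as an alternative. Probe positions are of build mm9, per the file headers; exons and UTRs were not used here.

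Log2 of the background-subtracted intensity was taken minus the 75th percentile of the array over spots that are not controls. Outlier spots were left out, spots of a probe were averaged, and a gene took its probe with the highest mean, kept if well above background on at least 7 of 23 arrays. Groups were compared with limma (version 3.58.1, R 4.3.3; a linear model with moderated variances, two-sided, all arrays, no covariate), with Benjamini-Hochberg adjustment over 28209 genes at 0.05. The fit was tested on simulated data. Files were read with data.table (version 1.17.8), and tables and plots were made with Python 3.11.15, pandas 2.3.3 and matplotlib 3.10.9.

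The genes, their division into classes and roles, and the pathway and marker lists were chosen with earlier results of these data known, so no p-value is given over a list. Levels in every group are given for the member with the smallest p and the brightest member of each role, and for the 3 members with the smallest p in each comparison. Alternatives were normexp background correction (offset 50), quantile normalization, no filter or a stricter filter on dim probes, the slide as a block and within slides, a replicate block, the mean of all probes, trend and robust eBayes, only the 2 groups compared, the deposited value table, array weights and each array left out. Promoter letters were searched in RefSeq windows of build GRCm38.p6.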

Additional observations from a re-analysis of the deposited data

Results flagged for a closer look

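Within groups, 17 of 132 sets of samples held 1 sample far from the others (its gap to the next over 0.526 of the range for 8 samples, or 0.568 for 7), where chance gives about 1 in 20, or 6.6. DIO 3 was the high sample in 11 of them: Isg15 (4.86), Irf7 (0.46), Irf9 (3.52), Oasl2 (3.56), Ifi35 (2.29), Ifih1 (1.52), Dhx58 (0.07), Bst2 (2.84), Xaf1 (1.35), Zbp1 (0.73) and Eif2ak2 (0.23), all type I targets. The gap was largest as a share of the range for Zbp1 (0.68) and Eif2ak2 (0.672). A gap to the next sample cannot flag high samples that lie close together, as DIO 3 (1.86) and DIO 10 (1.85) did for the type II target Psmb9. DIO 3 was also the highest of 23 samples for 7 of 11 type II targets.

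The other 6 fell on 6 samples. Rsad2 was low in DIO-R 10 (-5.22, group median -1.61) and high in DIO 8 (-0.07). Ifi27l2a was high in DIO-R 8 (5.08), Parp14 low in Lean 9 (-0.39), and Iigp1 high in DIO-R 5 (-1.27) and in Lean 7 (-1.28). These genes share samples, so the sets are not independent of each other.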

How the results depend on the processing

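For DIO against Lean, 0 members passed with all samples and 0 to 1 with an array left out; 1 passed with array weights, which was Ifi203 (0.99; 0.90 without DIO 6 and 1.03 without Lean 7). Members higher at an unadjusted p under 0.05 numbered 23, 15 to 30 with an array left out and 11 with the replicate block. They numbered 8 with DIO 3 and Lean 9 both left out, and 4, 9 and 11 within slides 1, 2 and 3. Of all genes 4.06% were higher at that p, 3.24% to 5.25% with an array left out and 2.54% with the replicate block. The share was 3.68% with DIO 3 and Lean 9 both left out, and 1.18%, 2.16% and 2.05% within slides 1, 2 and 3. The type II median of 0.62 was 0.25 within slide 1; with an array left out the medians ran from 0.39 to 0.69 (type I) and 0.49 to 0.69 (type II). For DIO-R against DIO, the 1 member higher became 1 to 2 with an array left out, 2 with DIO 3 and Lean 9 both out, and 0 with the replicate block and within each slide. The 6 lower became 3 to 11 with an array left out, 11 with the slide as a block, and 0 and 2 within slides 1 and 3. Of all genes 5.94% were higher at that p, 3.9% to 9.17% with an array left out. With DIO 3 and Lean 9 both out 9.27% were higher, with the replicate block 5.19%, and within slides 1, 2 and 3 1.59%, 2.27% and 2%. Lower at that p were 3.79%, 2.8% to 5.15% with an array left out, 4.78% with the slide as a block, and 5% and 1.31% within slides 1 and 3. The DIO-R against DIO type II median of -0.40 was -0.76 within slide 2. With an array left out the medians ran from -0.37 to -0.02 (type I) and -0.48 to -0.27 (type II). For DIO-R against Lean, 0 to 1 passed with an array left out (Ifi203, 0.73 without Lean 7), and the medians ran from 0.22 to 0.44 (type I) and 0.19 to 0.34 (type II). The 4 members higher became 3 to 11 with an array left out, 1 with the replicate block and 11 with only the 2 groups compared. They became 10 with array weights, and 1 within slides 1 and 2. Of all genes 4.43% were higher at that p, 3.14% to 4.97% with an array left out and 4.62% with the replicate block. The share was 5.13% with only the 2 groups compared, 6.35% with array weights, and 1.1% and 3.69% within slides 1 and 2. The cause was not tested; fits within a slide hold 2 to 3 samples a group.

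Over 38 settings, the direction of a member changed in 20 of 1669 values in DIO against Lean (7 members), 69 in DIO-R against DIO (21 members) and 51 in DIO-R against Lean (26 members), none of them called. Same-numbered DIO and Lean samples correlated at -0.243 to 0.321 in their deviations from the group means, so the numbers were not taken as pairs; with the replicate block the DIO against Lean medians were 0.48 and 0.60. The other settings kept 0 members past the threshold in all 3 comparisons. Oas3, a dim member, and the Ifng probe are limited by signal near background. Rsad2 was well above background in every sample but DIO-R 10, which was the highest DIO-R sample for 25 of the 44 genes.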

Other observations

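Cxcl9, a chemokine induced by type II interferon, was not among the genes whose levels were to be given and was chosen after its values were seen. It lay at -0.94 in DIO 3 and -0.95 in DIO 10, while the next highest samples were DIO-R 8 at -2.91 and DIO-R 5 at -3.94, and the other 19 samples lay at -4.40 or lower. Its DIO median (-5.05) was close to the Lean median (-5.07). The same samples, DIO 3 and DIO 10, held the highest type II means. Ifnb1, which did not pass the filter on dim probes, was well above background on 1 array, Lean 4, at -3.66, while the other 22 samples lay at -6.09 or lower.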
